A study of Mus musculus with 12 samples.

Results

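The 9 genes described here encode the core of cytokine signalling inside the cell: the Janus kinases Jak1, Jak2, Jak3 and Tyk2, the transcription factors Stat2, Stat3, Stat4 and Stat6, and the inhibitor Socs1. They were taken by name from the log2 table of a mouse PanCancer Immune panel, run on the NanoString nCounter, which counts colour-coded probes bound to RNA with no amplification step, and all 9 of the 9 listed names were present among its 750 genes. The 12 RNA samples were 2 of the cultured mT3-2D line, 5 of mT3-2D tumours from immunocompetent (WT) hosts and 5 of mT3-2D tumours from SCID hosts, grown under the skin. All tumours came from this 1 line of the KPC mouse model of pancreatic cancer, and the SCID host has no mature lymphocytes of the T and B lineages but keeps NK and myeloid cells. Host strain, age, tumour size and time of harvest are not stated in the labels. Tumours of 1 group can share a number in their titles (WT tumours 3, 4 and 5, SCID tumours 1 and 2, SCID tumours 3 and 4), and the labels do not tell which animals they came from. The p-values therefore cover the spread between these samples, which may be technical.

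Cytokine receptors have no kinase of their own. A bound receptor brings together the JAK proteins on its tails, which phosphorylate STAT proteins, and these move to the nucleus and switch on genes. JAK1 and TYK2 serve the type I interferon receptor and signal through STAT2, JAK1 and JAK2 the interferon-gamma receptor, JAK3 the common gamma chain of the interleukin 2 family, TYK2 and JAK2 the interleukin 12 receptor and STAT4, JAK1 and STAT3 the interleukin 6 family, and STAT6 interleukins 4 and 13. SOCS1 is induced by these signals and binds and inhibits JAK proteins. The panel measures transcripts, whereas JAK and STAT activity is set by phosphorylation, which was not measured.

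Each sample held between 368925 and 558445 probe counts, recovered from the deposited values, and a background level was set at 37.95 counts, the 95th percentile of 34 T and B cell genes in the line. Genes above it numbered 299 and 308 in the line, between 487 and 555 in WT tumours and between 421 and 472 in SCID tumours. WT tumours 2 and 3 had nearly the same counts (a chi-square of 1.2 for each degree of freedom, where the 19 other tumour pairs of a group had 17.1 to 84.5) and were averaged as 1 sample, which leaves n = 4 WT, n = 5 SCID and n = 2 line samples. The 2 line samples were almost as close to each other (1.64) but were kept apart. The difference between them may therefore hold little spread between cultures. Epithelial markers including Epcam and Cdh1 were above background in every sample, and the pan-leukocyte markers Ptprc, Cd53 and Itgb2 were at background in the line and above it in at least 1 tumour of each group. Of all 17 pan-leukocyte markers, 2 to 4 were above background in the line samples. Of the values of 9 members in 12 samples, 98 were above background, and the 10 that were not all belonged to Stat4. Levels below are log2 normalized values, and because probes differ in efficiency the level of one gene is not set against that of another.

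Between the 2 kinds of host, Tyk2 was the 1 member that passed the test. It was lower in SCID tumours, while 7 other members were lower and Jak2 was higher without passing. The median difference of the 9 members, SCID minus WT, was -0.47 on the log2 scale, and that of all 750 genes was -0.33. By limma's test, 1 of 9 members was called lower, against 15.7% of all genes, and 0 of 9 higher, against 0.133% of all genes. The members' count thus lies near the background of the panel. The 2 groups did not overlap for 1 of 9 members, again Tyk2, lower, against 15.7% of all genes lower, 0.267% higher and 16% in either direction. In these bulk samples, fewer cells of a type and less RNA per cell cannot be told apart.

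**Figure D1:**
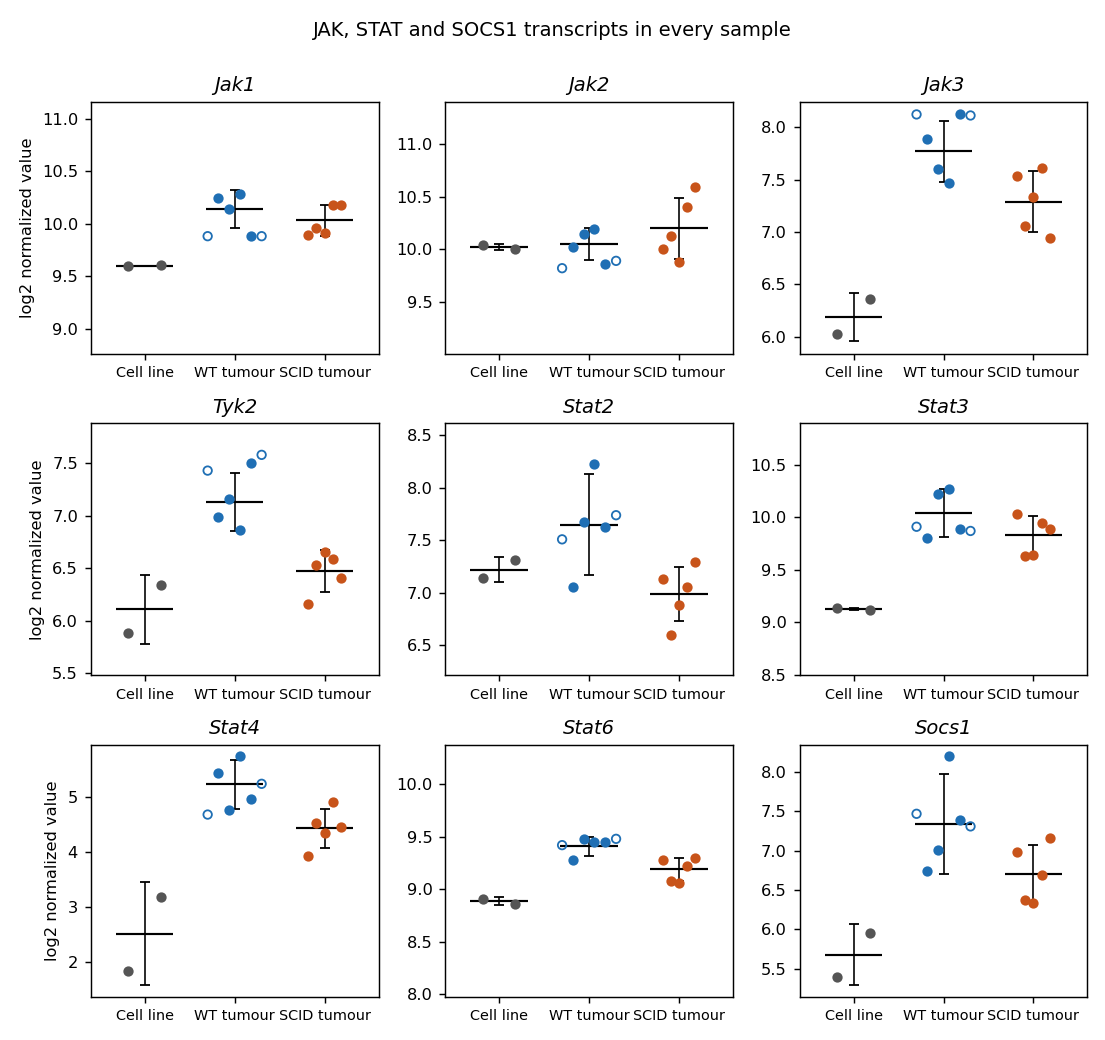
The 9 panels show the log2 normalized value of each gene in every sample; filled points are the samples tested (WT tumours 2 and 3 as their mean), open points are WT tumours 2 and 3 themselves, lines are group means and bars SDs. On the deposited scale Tyk2 separates WT tumours (6.86 to 7.50) from SCID tumours (6.16 to 6.65), Jak2 lies near 10 in all groups, and Stat4 is at background in the line; other scalings turn some of these differences round, as the plot of scalings shows.

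Among the kinases, Tyk2 had log2 values of 6.99 in WT tumour 1, 7.50 in the mean of WT tumours 2 and 3, 7.16 in WT tumour 4 and 6.86 in WT tumour 5. In SCID tumours 1 to 5 it had 6.16, 6.53, 6.65, 6.59 and 6.41. Every WT value was thus above every SCID value, by 0.21 at the closest (6.86 against 6.65). The mean was 7.13 ± 0.28 (SD, n = 4) in WT and 6.47 ± 0.20 (SD, n = 5) in SCID tumours, a change of -0.66 (SE 0.18, limma adjusted p = 0.0339), or 1.58-fold lower. The counts behind these values were 113 to 172 in WT and 66 to 109 in SCID tumours, all above the background level of 37.95 and all below 180, the highest count among the genes that set it. An exact permutation test over the tumours gave p = 0.00794 (two-sided), the smallest the design allows, and 0.0676 after adjustment over all genes. The call ended without WT tumour 4, without any 1 of SCID tumours 1, 2, 3 and 4, and without the averaged pair (adjusted p between 0.0505 and 0.0889), and with every other scaling tried: the change was -0.59 on widely expressed genes (adjusted p = 0.0707), -0.34 by trimmed mean of M-values (TMM; 0.315) and -0.06 on the median of all genes (0.872).

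The marker sums of other cell types are set beside these values. That of 17 macrophage markers ranged from 4106 to 6933 in WT and from 2347 to 3926 in SCID tumours, with Csf1r, Cd68 and Emr1 above background in at least 1 tumour of each host. In the line Csf1r and Emr1 were at background, whereas Cd68 exceeded it in at least 1 sample. The sum of 8 dendritic cell markers ranged from 466.6 to 693 in WT and from 236 to 462.3 in SCID tumours, with 3 and with 2 to 3 of them above background. That of 22 T cell markers ranged from 837.7 to 1311 and from 500.8 to 673.4, with Cd3e and Cd3g at background in every SCID tumour and line sample. Of the 22, 4 to 12 were above background in WT and 1 to 3 in SCID tumours. The line's T cell sums were 339.8 and 367.4, so much of this signal lies at the floor. Cd3d exceeded background in at least 1 SCID tumour and in at least 1 line sample. These 3 sums did not overlap between hosts. The sum of 17 pan-leukocyte markers did (2535 to 4341 in WT and 1449 to 3009 in SCID tumours, with 15 to 17 and 12 to 15 of them above background). So did that of 16 NK cell markers, which ranged from 979.9 to 1275 in WT and from 900.3 to 1688 in SCID tumours, with the higher median in SCID tumours (1469 against 1054). Klrb1c was at background in every tumour, and Ncr1 and Klrd1 exceeded it in at least 1 tumour of each host. The part of these cells in the difference of Tyk2 or of any other member was not tested.

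Jak3, which is best known from lymphoid and myeloid cells, had values of 7.89, 8.12, 7.60 and 7.47 in WT tumour 1, the averaged pair and WT tumours 4 and 5. Its values in SCID tumours 1 to 5 were 7.53, 7.06, 7.33, 7.61 and 6.94. The groups overlapped, since SCID tumours 1 and 4 lay above WT tumour 5. The mean difference was -0.47 (SE 0.20, limma adjusted p = 0.142), and 0.13 after median scaling. Jak1, which serves most cytokine receptor families, ranged from 9.88 to 10.28 in WT and from 9.89 to 10.18 in SCID tumours, with a difference of -0.11 (SE 0.15, adjusted p = 0.663). Jak2, the kinase of the interferon-gamma receptor and of growth hormone-like receptors, ranged from 9.86 to 10.19 in WT and from 9.88 to 10.59 in SCID tumours, where SCID tumours 4 and 5 held the 2 highest values (10.40 and 10.59). Its difference was 0.15 (SE 0.18, adjusted p = 0.624), and it became a call (0.75, adjusted p = 0.0248) when samples were scaled to the median of all genes.

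Stat2, the partner of the type I interferon response, had values of 7.06 in WT tumour 1, 7.63 in the averaged pair, 7.68 in WT tumour 4 and 8.23 in WT tumour 5. In SCID tumours 1 to 5 it had 7.13, 6.60, 6.88, 7.06 and 7.29. WT tumour 1 lay inside the SCID range and the other WT values above it. The difference was -0.66 (SE 0.24, limma adjusted p = 0.0907), as large as that of Tyk2 but with an SD of 0.48 among WT tumours. Without WT tumour 1 it was called, at -0.85 (adjusted p = 0.0266), whereas without WT tumour 5 it was -0.46 (0.253). The difference was -0.34 (0.342) by TMM and -0.05 (0.876) after median scaling.

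Stat4, which relays interleukin 12 in T and NK cells, was near the floor of the assay. Its recovered counts were 41 in WT tumour 1, 19 and 34 in WT tumours 2 and 3, 25 in WT tumour 4 and 52 in WT tumour 5. In SCID tumours they were 14, 25, 22, 30 and 18, and in the line 5 and 13. WT tumours 1 and 5 exceeded the background level and no other sample did. On the log2 scale the tumours differed by -0.80 (SE 0.25, limma adjusted p = 0.0569). No fold is given, because every SCID value was at background and the WT mean of 5.23 did not exceed the level set there. The difference was -0.20 (0.571) after median scaling, -0.48 (0.228) by TMM and -0.24 (0.237) with values raised to background. Without WT tumour 5 the adjusted p was 0.173, and over all single samples left out it ran from 0.0382 to 0.173. It was under 0.05 with WT tumours 2 and 3 apart (0.0492), with WT tumour 2 and SCID tumour 5, whose title numbers belong to another series, both absent (0.0454), and when WT tumour 2, SCID tumour 4 or WT tumour 4 was left out (0.0382, 0.0444 and 0.0455).

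Stat3, the factor of interleukin 6-type cytokines, ranged from 9.80 to 10.27 in WT and from 9.63 to 10.03 in SCID tumours (difference -0.22, SE 0.17, limma adjusted p = 0.425). Stat6, the factor of interleukins 4 and 13, lay within narrow ranges, 9.28 to 9.48 in WT and 9.06 to 9.30 in SCID tumours (difference -0.22, SE 0.14, adjusted p = 0.294). Its SDs of 0.09 and 0.11 are under the panel's medians of 0.34 in WT and 0.37 in SCID tumours. Both differences were above 0 after median scaling (0.39 and 0.38) and TMM (0.10 and 0.09).

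Socs1 had values of 6.74, 7.39, 7.01 and 8.20 in WT tumour 1, the averaged pair and WT tumours 4 and 5. In SCID tumours 1 to 5 they were 6.98, 6.38, 6.34, 6.69 and 7.16. WT tumour 5, with 287 counts, stood highest and was the 1 sample of 12 above the highest background count of 180, the others having at most 143, and SCID tumours 1 and 5 lay above WT tumour 1. The difference was -0.63 (SE 0.30, limma adjusted p = 0.179), and -0.34 without WT tumour 5 (adjusted p = 0.458).

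**Figure D2:**
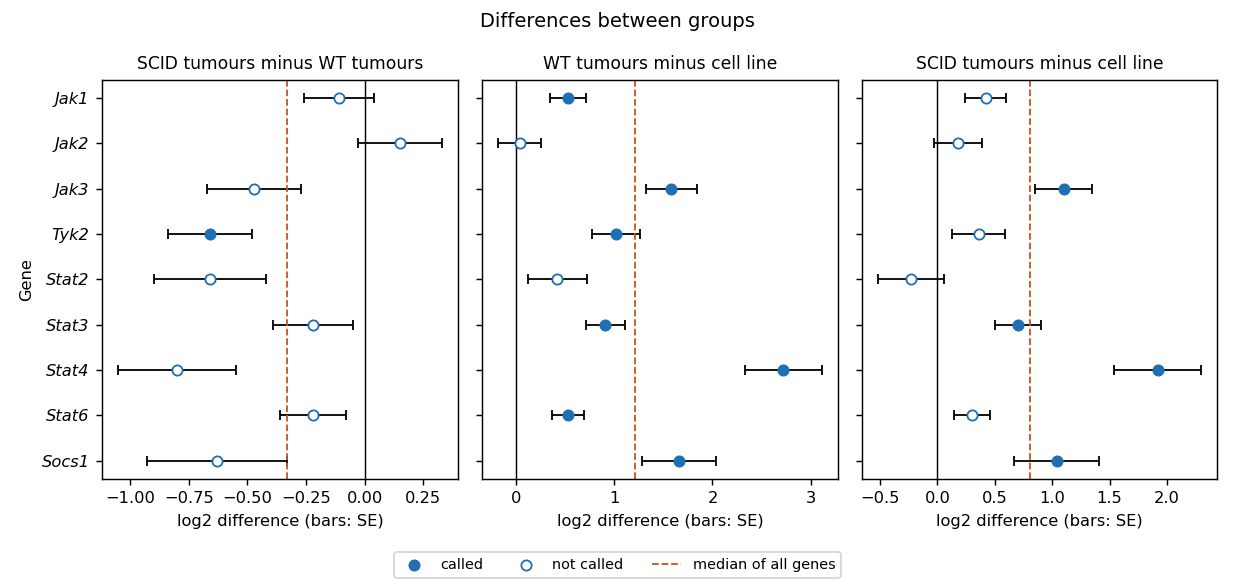
Points are log2 differences between group means from limma, bars are SEs, filled points are calls at an adjusted p under 0.05 and the dashed line is the median of all 750 genes. On the deposited scale, Tyk2 is the 1 call between hosts, and the differences of tumours from the line run from 0.04 (Jak2) to 2.72 (Stat4) in WT hosts; median scaling puts all of these but Stat4 below 0.

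The promoter windows of Socs1, Stat2 and Stat4 are printed because they hold the core of the interferon-stimulated response element (ISRE), the sequence bound by the STAT2-containing complex and by interferon regulatory factors. The windows run from 250 bases before to 50 after an annotated start, come from RefSeq on GRCm38.p6, and were found for all 9 members (10 windows, 2 of them of Stat4). The letters searched, on both strands, were GAAA followed after 2 bases of any kind by GAAA, and windows of 3 of 9 members held them, against 3.44% of all 32851 windows. In each sequence, read 5′ to 3′ on the gene's own strand, capitals mark a match. Socs1 is at chr16:10785487-10785786 on the minus strand, Stat2 at chr10:128270248-128270547 on the plus strand, and the second Stat4 window at chr1:52007990-52008289 on the plus strand.
Socs1: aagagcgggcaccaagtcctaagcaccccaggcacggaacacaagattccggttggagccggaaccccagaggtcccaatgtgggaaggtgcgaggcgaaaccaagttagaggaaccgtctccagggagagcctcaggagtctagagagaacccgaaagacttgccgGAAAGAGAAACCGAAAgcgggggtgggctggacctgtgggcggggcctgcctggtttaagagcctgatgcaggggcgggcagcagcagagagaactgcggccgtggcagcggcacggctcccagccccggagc
Stat2: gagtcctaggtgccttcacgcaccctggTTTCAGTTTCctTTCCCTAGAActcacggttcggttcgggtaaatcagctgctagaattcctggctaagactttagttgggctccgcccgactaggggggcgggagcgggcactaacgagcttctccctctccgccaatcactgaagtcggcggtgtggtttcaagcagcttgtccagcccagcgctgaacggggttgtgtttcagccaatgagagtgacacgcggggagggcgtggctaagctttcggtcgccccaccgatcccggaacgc
Stat4: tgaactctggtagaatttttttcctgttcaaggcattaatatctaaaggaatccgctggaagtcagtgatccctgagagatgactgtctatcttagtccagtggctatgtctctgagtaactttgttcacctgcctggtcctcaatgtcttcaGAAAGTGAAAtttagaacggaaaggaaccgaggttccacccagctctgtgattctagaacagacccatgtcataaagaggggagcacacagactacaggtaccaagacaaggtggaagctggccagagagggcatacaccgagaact
In Socs1, GAAAGAGAAA and GAAACCGAAA overlap by 4 bases, from base 168 to base 183 of the window. In Stat2, TTTCAGTTTC at bases 29 to 38 is the core on the other strand, and the later capitals, TTCCCTAGAA, match TTC followed after 4 bases of any kind by GAA, a STAT6-type spacing that 6.95% of all windows hold. Stat4 holds GAAAGTGAAA at bases 154 to 163. The core of the interferon-gamma activated site, TTC followed after 3 bases of any kind by GAA, was found in 0 of the 10 windows of the 9 members and in 8.3% of all windows. A match is a run of letters in these windows, and binding was not measured.

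Against the cultured line, 7 of 9 members were called higher in WT tumours on the deposited scale and 4 of 9 in SCID tumours. Without regard to the test, 9 of 9 and 8 of 9 had higher means in the tumours. After median scaling 8 of 9 were called lower and 0 higher in each, and by TMM 1 higher and 3 lower in WT tumours and 1 higher and 2 lower in SCID tumours. The members' medians were 0.91 and 0.42, below those of all genes, 1.21 and 0.81. Of all genes, 67.1% were called higher in WT tumours and 51.6% in SCID tumours (69.7% and 54.4% in either direction), so the members' counts lie near the background of the panel. Called lower were 0 of 9 members in each, against 2.67% and 2.8% of all genes. Every WT tumour lay above both line samples for 7 of 9 members, against 73.5% of all genes, and every SCID tumour for 6 of 9, against 60.7%. Every tumour lay below the line for 0 of 9 members in each host, against 4.93% of all genes in each (78.4% and 65.6% apart in either direction). The 2 comparisons share the line's 2 samples. These differed little from each other (a chi-square of 1.64 for each degree of freedom). The p-values against the line may thus cover little spread between cultures.

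Socs1 had 59 and 89 counts in the line, and it rose by 1.66 (SE 0.38, limma adjusted p = 0.00257) in WT tumours and by 1.04 (SE 0.37, adjusted p = 0.0342) in SCID tumours, or 3.16-fold and 2.05-fold, but was lower by -0.94 and -0.97 after median scaling. Its call in SCID tumours was lost without either line sample, without any 1 of SCID tumours 1, 4 and 5 (adjusted p between 0.0533 and 0.247), and in the replicate block (0.0534). Jak3 had 91 and 118 counts in the line. It was 2.98-fold higher in WT tumours (1.58, SE 0.26, adjusted p = 2.31e-04) and 2.15-fold higher in SCID tumours (1.10, SE 0.25, adjusted p = 0.00307), but -1.03 and -0.90 after median scaling. The line's Jak3 counts exceeded the background level but not its highest count of 180.

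Stat4 was at background in the line, in every SCID tumour and in 3 of 5 WT tumours, so no fold is given. Its log2 values passed the test in WT tumours (limma adjusted p = 9.49e-05, or 0.767 after median scaling) and in SCID tumours (0.00132, or 0.842). Stat3 was at 9.14 and 9.12 in the line, below every tumour. It rose by 0.91 (SE 0.20, adjusted p = 0.00206) in WT and by 0.70 (SE 0.20, adjusted p = 0.0114) in SCID tumours, and was at -1.69 and -1.30 after median scaling and -0.12 and -0.02 by TMM. The rise in SCID tumours was no longer called without either line sample (adjusted p = 0.0697 and 0.0713).

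Tyk2 rose by 1.02 in WT tumours (SE 0.24, limma adjusted p = 0.00251), was 0.36 (SE 0.23, adjusted p = 0.2) in SCID tumours, and was at -1.59 and -1.64 after median scaling. Its SCID values overlapped those of the line, 5.88 and 6.34, whereas no WT value did. Stat6 was 0.53 (SE 0.16, adjusted p = 0.0144) in WT and 0.30 (SE 0.16, adjusted p = 0.13) in SCID tumours, and Jak1 was 0.53 (SE 0.18, adjusted p = 0.0234) and 0.42 (SE 0.18, adjusted p = 0.0651). Both turned negative after median scaling and by TMM. Leaving out either line sample ended the WT calls of Stat6 (adjusted p = 0.0657 and 0.0878) and Jak1 (0.104 and 0.0984). Leaving out WT tumour 5, or fitting the replicate block, also ended that of Jak1 (0.0525 and 0.0803). So did scaling on widely expressed genes (0.0504) and a fit of WT tumours and the line without SCID tumours (0.0508).

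Jak2 and Stat2 were called in neither comparison on the deposited scale. Jak2 had 1470 and 1471 counts in the line, and its log2 values there lay within the range of both tumour groups, with differences of 0.04 (SE 0.22) in WT and 0.18 (SE 0.21) in SCID tumours. It was called lower in both by TMM (-1.0, limma adjusted p = 7.91e-04, and -0.53, 0.0319) and after median scaling (-2.57 and -1.82). Stat2 had 7.14 and 7.31 in the line. It was 0.42 higher in WT (SE 0.30, limma adjusted p = 0.214) and 0.23 lower in SCID tumours (-0.23, SE 0.29, adjusted p = 0.503), the 1 member on opposite sides of the line in the 2 hosts, which neither comparison called. Stat2 was called lower in both after median scaling (-2.18 and -2.23), and in SCID tumours by TMM (-0.95, adjusted p = 0.00854).

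The choice of scaling decided these directions. Setting every sample to the median of all genes moved the calls between hosts from 1 higher and 118 lower to 49 higher and 37 lower, and TMM moved them to 8 and 56. The median of all genes went from -0.33 to 0.28 and -0.01. For WT tumours against the line the calls went from 503 higher and 20 lower to 106 and 483 (median) and 249 and 148 (TMM), with medians of 1.21, -1.40 and 0.17. In SCID tumours they went from 387 and 21 to 101 and 481, and 212 and 119, with medians of 0.81, -1.20 and 0.09. Relative to the median of all genes on the deposited scale, Stat4, Socs1 and Jak3 stood above it against the line in WT tumours (by 1.51, 0.45 and 0.37) and in SCID tumours (by 1.12, 0.23 and 0.30), and the other 6 members below it in both. Between hosts, relative to that median, Jak2 stood at 0.47, Jak1 at 0.22, Stat3 at 0.11 and Stat6 at 0.10, and Stat4 at -0.47, Tyk2 and Stat2 at -0.33, Socs1 at -0.30 and Jak3 at -0.15. Scaling on 56 widely expressed genes kept the sign of every member in each comparison except Jak2 in WT tumours against the line, which went from 0.04 to -0.08.

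**Figure D3:**
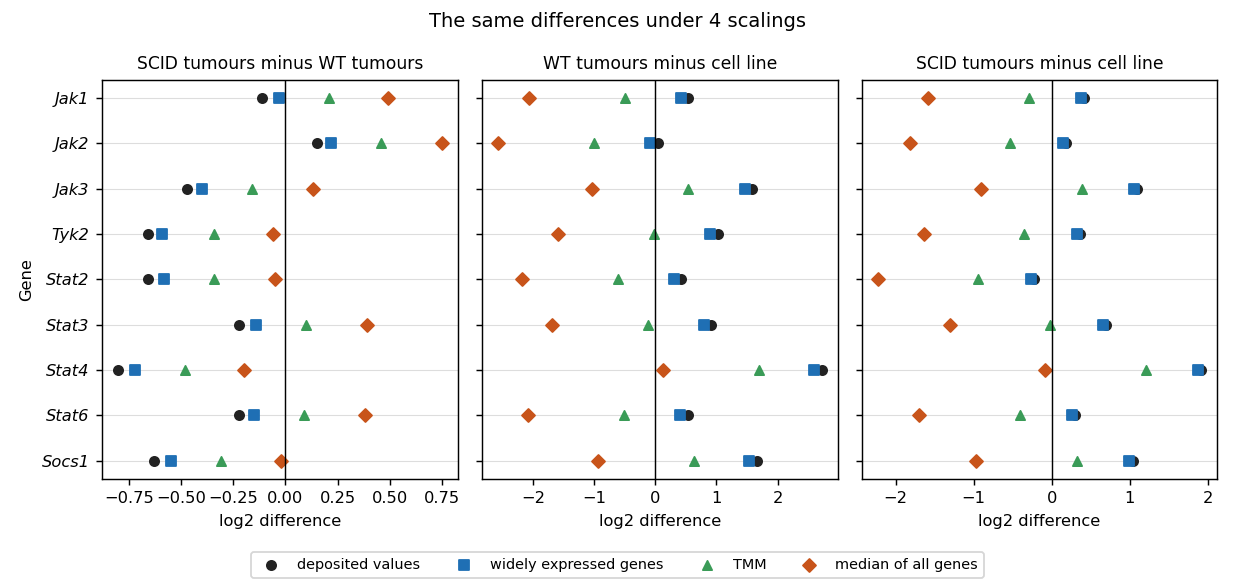
The log2 difference of each gene is shown for the deposited values and 3 other scalings of the samples. The deposited values and the scaling on widely expressed genes lie close together, TMM shifts the differences from the line downward, and the median of all genes puts every member but Stat4 below 0 in WT tumours and all 9 below 0 in SCID tumours.

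Upstream of the kinases, 8 of 25 measured receptors that use JAK proteins fell in SCID tumours, 0 rose and 17 were not called, with a median of -0.46 (-0.33 over all genes). After median scaling 2 were lower, 0 higher and the median was 0.15. The 3 largest falls were of receptor chains of the interleukin 2 family, which signals through JAK1 and JAK3. Il2rb, the beta chain for interleukins 2 and 15, was 4.84-fold lower (limma adjusted p = 0.00208). Il7r, the interleukin 7 receptor, did not exceed background in any SCID tumour and had a bound of at least 2.42-fold lower (adjusted p = 0.00111). Il2rg, the common gamma chain that binds JAK3, fell by 1.32 (SE 0.32, adjusted p = 0.02). With median scaling its change was -0.72 (0.0668), and without WT tumour 5 it was not called either (0.0694). Of 30 measured ligands, 4 had a mean above background in WT and 3 in SCID tumours, so most of this list lay at the floor. Of the 30, 3 fell, 0 rose and 27 were not called (median -0.22). By TMM 0 were called, and after median scaling 3 were higher and 0 lower (median 0.38). The 3 that fell on the deposited scale were Il15 (adjusted p = 0.013, or 0.338 after median scaling), Il7 (0.0265, or 0.306) and Csf2, the last of which, granulocyte-macrophage colony stimulating factor, signals through JAK2 and was 1.91-fold lower (adjusted p = 0.0446, or 0.353 after median scaling). The calls of both Il7 and Csf2 were lost when WT tumour 4, WT tumour 5, the averaged pair or SCID tumour 2 was left out (adjusted p between 0.0576 and 0.0989 over the samples whose loss ended either). SCID tumours 1 and 3 did so for Il7, and WT tumour 1 and SCID tumour 4 for Csf2. Il15 and Il7 have no fold, since the mean of WT tumours did not exceed the background level.

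Downstream, 13 of 16 genes induced by interferon-gamma fell and 0 rose, with a median of -1.73, and 10 of them were lower after median scaling. Of 23 genes induced by type I interferon, 8 fell and 0 rose, with a median of -0.75, and 3 were lower after median scaling. Largest in the first list were the T cell chemokines Cxcl9, at least 30-fold lower (limma adjusted p = 1.01e-04), and Cxcl10, 8.86-fold lower (8.83e-04), and Nlrc5, which activates MHC class I genes, at least 5.31-fold lower (7.72e-04). In the second they were the nucleic acid sensor Zbp1 (-2.33, SE 0.38, adjusted p = 0.00306), the ubiquitin-like Isg15 (-1.53, SE 0.35, 0.0149, or 0.0512 without WT tumour 5 and 0.0519 after median scaling) and the antiviral enzyme Oas2 (-1.51, SE 0.21, 0.00151). Of 17 measured STAT3 targets 0 were called, with a median of -0.12, and 4 were higher after median scaling. Of 11 STAT6 targets 2 fell and 0 rose (median -1.09). They were Chil3, a chitinase-like protein of macrophages, 8.83-fold lower (adjusted p = 0.0212), and Gata3, a T helper 2 transcription factor, 2.5-fold lower (adjusted p = 0.0236, or 0.113 after median scaling). Chil3 was not called without WT tumour 4, WT tumour 5 or the averaged pair (adjusted p between 0.0512 and 0.0718), nor Gata3 without WT tumour 5 or any 1 of SCID tumours 1, 2 and 3 (0.0501 to 0.0635). Of 7 STAT4 targets, 2 had a mean above background in each host. Among the 7, 1 fell, Il12rb2, the second chain of the interleukin 12 receptor (-0.83, adjusted p = 0.0492). It was at background in SCID tumours, and its WT mean of 3.91 did not exceed the background level either, so no fold is given. It was not called on widely expressed genes (0.0788), by TMM (0.197) or after median scaling (-0.22, 0.486). The call also ended without WT tumour 2, 4 or 5, without any single SCID tumour and without the averaged pair (adjusted p between 0.0596 and 0.141). The lists share genes (Il4ra, Il12rb2, Ifng, Il6, Osm, Usp18, Socs3 and Cish stand in more than 1), and the share of each list called is a description beside the 15.7% of all genes called lower. The median of all 750 genes was -0.33 on the deposited scale. After median scaling it was 0.28, with 49 genes called higher and 37 lower.

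Over single tumours the members fell into different patterns. WT tumour 5 held the highest WT value of 6 of 9 members (Jak1, Jak2, Stat2, Stat3, Stat4 and Socs1) and the lowest of Jak3 and Tyk2. In the same tumour the summed signal of interferon-gamma-induced genes was 11260, against 3351 to 5778 in the other WT tumours and 1113 to 1745 in SCID tumours. Its pan-leukocyte sum of 4341 was also the highest of the 10 tumours. Among WT tumours it was highest too in the sums of receptors, type I interferon-induced genes, and STAT4 and STAT6 targets. The same held for T, B, NK, macrophage and dendritic cell markers. Other WT tumours were highest in ligands, STAT3 targets, and neutrophil, endothelial, matrix and epithelial markers. WT tumour 5 also had the most genes above background (555) and the most counts (558445) of all samples. Relative to the mean of the 9 tumour values, Socs1 stood at 1.21 and Stat2 at 0.95 there, while Tyk2 stood at 0.09 and Jak3 at -0.03. Tyk2 and Jak3 were highest in the averaged pair, at 0.74 and 0.61. Among SCID tumours, tumour 5 held the highest value of Jak2, Stat2, Stat6 and Socs1 and the lowest of Jak3, with the highest SCID sums of interferon-gamma-induced genes (1745) and pan-leukocyte markers (3009). Its sums of type I interferon-induced genes, STAT6 targets, and T cell, macrophage, dendritic cell, endothelial and matrix markers were also the highest of SCID tumours. Those of receptors, STAT3 and STAT4 targets, and NK cell, neutrophil and epithelial markers were not. Whether these go together was not tested, since each group has too few samples for a correlation.

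**Figure D4:**
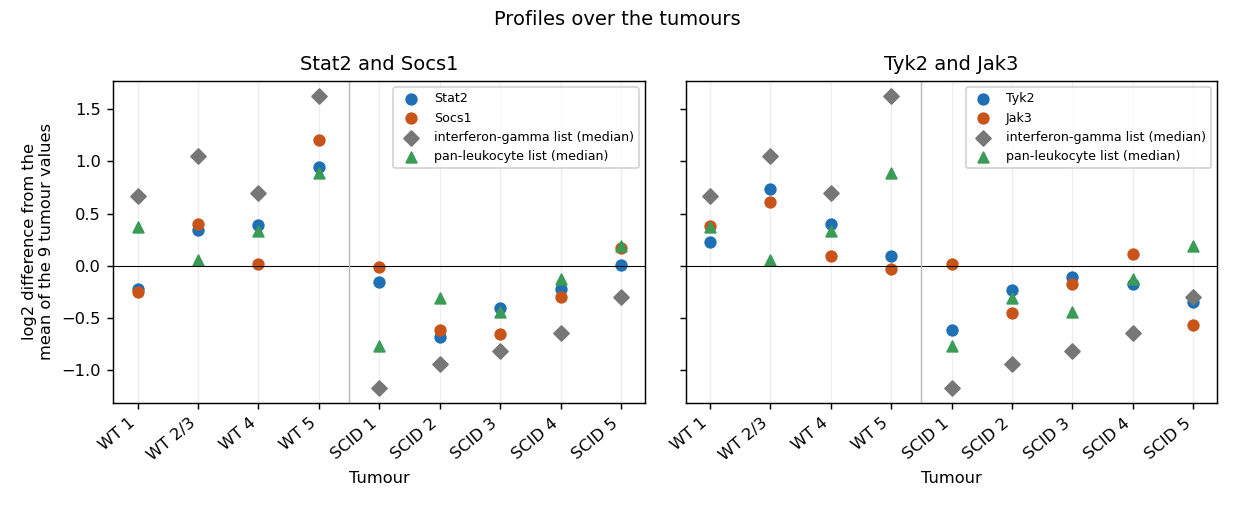
Each point is a tumour's log2 difference from the mean of the 9 tumour values, for 2 genes a panel and for the median gene of the interferon-gamma and pan-leukocyte lists; tumours have no order within a group. In WT tumour 5 Socs1 stands at 1.21 and Stat2 at 0.95, beside 0.09 for Tyk2 and -0.03 for Jak3.

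The genes with the profile most like each member were sought among 465 genes above background in at least 6 of the 11 samples, by the root mean square difference between centred log2 profiles. Stat6 lay closest to Rela (0.06) and Irf2 (0.11), Jak1 to Tfe3 (0.09) and Ifnar2 (0.10), Jak2 to Bcl10 (0.10) and Nfatc3 (0.14), and Stat3 to Ifnar1 and Cd81 (0.13 each). Tyk2 lay closest to Ikbke (0.17) and Tirap (0.23), Stat2 to Ifi35 (0.21) and Rel (0.25), and Jak3 to Cd3eap (0.23) and Vhl (0.25). Those of Socs1 were Irf1 (0.27) and Ddx58 (0.33), and those of Stat4 were Btk (0.29) and Lag3 (0.37). The median gene differed from a member by 0.57 to 0.87. The samples of a group share their host or culture, so likeness here includes the difference between groups.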

How the data were processed

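Total RNA of 12 samples was measured with the nCounter Mouse PanCancer Immune panel, per the series title. Per the labels' protocols, RNA was extracted with the PureLink RNA Mini Kit and its quality read on the Agilent BioAnalyzer. The authors deposited log2 values for 750 genes and a table of linear signal for 749 of them, and log2 of the deposited signal equals the deposited log2 values within 5.4e-09. The sources used here state no normalization genes, software, background treatment or genome build. Within each sample 100% of values were whole multiples of 1 step, within 0.02 counts, which gave the recovered counts. The totals limit precision for low genes such as Stat4, and 0 columns of other samples were present.

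Groups came from the labels. The test was limma 3.58.1 (lmFit, then eBayes; two-sided, no covariate) on the deposited log2 values of all 750 genes, with the tumours alone for the hosts and with all 3 groups for the line. A gene was called at an adjusted p (Benjamini-Hochberg) under 0.05, with no filter or pseudocount. With no sample of the dimmer group above background, a fold is "at least", from the brighter mean over the dimmer group's mean of its background levels (or its own value where higher), with none given under 1 or, for Stat4, where most of the brighter group was at background too. The fit was tested on simulated data. Alternatives covered scaling, low values, variance trend, blocks, an exact permutation test and each sample left out. WT tumours 2 and 3 were averaged because their counts differed by little more than counting noise. The 2 line samples, whose counts also differed little, were kept apart.

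The members, gene lists and tests were chosen with earlier results of these data known. All 9 members are named, and from each list the 3 called genes with the largest change between hosts. WT tumour 5, singled out among the tumours, and the 3 printed promoters were chosen after their values were seen.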

Additional observations from a re-analysis of the deposited data

Results flagged for a closer look

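Of 18 sets of values examined (9 genes in WT and in SCID tumours), 1 held a value far from the rest, where chance gives about 1 in 20. Stat6 in WT tumour 1 was at 9.28, below the other WT values, which lay between 9.45 and 9.48, so its gap to the nearest took 0.85 of the group's range. That range was 0.20 on the log2 scale.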

How the results depend on the processing

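Each comparison was repeated with each alternative except edgeR and DESeq2, which were not run because the deposited values are normalized signal and not raw counts. The labels do not say whether replicate numbers pair the samples. The correlation of same-numbered WT and SCID tumours ran from -0.412 to 0.242, over too few pairs to tell. The replicate block treats equal numbers as paired, also between tumours and line. With it 161 genes were called between hosts, 489 for WT and 358 for SCID tumours against the line, with 1, 6 and 3 members. Calls between hosts numbered 119, and 64 by TMM or 62 with values raised to background; leaving out single samples gave 67 (without WT tumour 5) to 158, and 421 to 533 and 283 to 413 against the line (WT and SCID).

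Members called between hosts numbered 1, Tyk2. There were 0 by TMM, by scaling on widely expressed genes, without the averaged pair and by the exact permutation test adjusted over all genes, 2 (Tyk2 and Stat4) with WT tumours 2 and 3 apart or in the larger series of title numbers by itself (without WT tumour 2 and SCID tumour 5), and 0 to 2 with single samples left out. Median scaling also gave 1, but this was Jak2, higher. Against the line, 7 members were called in WT tumours (4 by TMM, of which 3 were lower, 8 after median scaling, all lower, and 5 to 7 with samples left out). In SCID tumours 4 were called (3 by TMM, of which 2 were lower, 8 after median scaling, all lower, and 2 to 4 with samples left out). With the highest background count as the level, 58 of the 98 member values stayed above it, with 0 of Tyk2 and 1 of Socs1 among them.

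Signs turned under scaling, which moves all genes of a sample together. Between hosts, median scaling gave 0.49 for Jak1, 0.13 for Jak3, 0.39 for Stat3 and 0.38 for Stat6, and TMM 0.21 for Jak1, 0.10 for Stat3 and 0.09 for Stat6. For WT tumours against the line, median scaling gave -2.07 (Jak1), -2.57 (Jak2), -1.03 (Jak3), -1.59 (Tyk2), -2.18 (Stat2), -1.69 (Stat3), -2.08 (Stat6) and -0.94 (Socs1), and TMM -0.50 (Jak1), -1.0 (Jak2), -0.02 (Tyk2), -0.61 (Stat2), -0.12 (Stat3) and -0.51 (Stat6). For SCID tumours they gave -1.58 (Jak1), -1.82 (Jak2), -0.90 (Jak3), -1.64 (Tyk2), -1.30 (Stat3), -0.08 (Stat4), -1.70 (Stat6) and -0.97 (Socs1), and by TMM -0.29 (Jak1), -0.53 (Jak2), -0.36 (Tyk2), -0.02 (Stat3) and -0.41 (Stat6). Jak2 in WT tumours against the line, 0.04, was also below 0 on widely expressed genes (-0.08), with the replicate block (-0.12), at -0.0044 when WT tumours 2 and 3 were kept apart, and at -0.01 to 0.10 with samples left out. Which scaling fits a panel whose lymphoid and myeloid genes are mostly at background in the line was not tested.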

Other observations

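Of 3 measured genes for other inhibitors of the pathway, Socs3, the feedback inhibitor of interleukin 6-type signals, was not called between hosts. Its mean was 6.86 ± 0.35 (SD, n = 4) in WT and 6.98 ± 0.28 (SD, n = 5) in SCID tumours, a difference of 0.13 (SE 0.21, limma adjusted p = 0.728). Against the line, at 5.84, it rose by 1.02 in WT (SE 0.26, adjusted p = 0.00457) and by 1.15 in SCID tumours (SE 0.25, adjusted p = 0.0026), and was at -1.58 and -0.85 after median scaling. Usp18, which inhibits the type I interferon receptor, had a difference of -0.97 between hosts (SE 0.34, adjusted p = 0.0789), and Ptprc, the leukocyte phosphatase CD45, fell by 1.0 (SE 0.25, adjusted p = 0.0236), a call lost after median scaling (0.188) and without WT tumour 5, SCID tumour 3 or the averaged pair (0.0511 to 0.076).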
